A study of Homo sapiens with 17 samples.

Results

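Acetylation of histone H3 at lysine 9 (H3K9ac) was compared between the Si1235 and NC1235 arms of HCC1954, an established HER2-positive human breast cancer cell line, in 2 of the 17 libraries of the series, 1 per arm. Members were chosen by antibody label alone: the deposited H3K9ac peak list of Si1235 and that of NC1235. Cells of both arms had received antisense oligonucleotides (ASOs) and were fixed 72 h after transfection. The arm names stand in the genotype field of the labels, which do not spell out NC and Si. The series title names LINC01235, a long non-coding RNA gene on chromosome 9, and the level of that RNA was not measured in the lists used here. With 1 library per arm, H3K9ac has no replicate, so its values carry no error and no test. Nothing in the labels says whether the H3K27ac libraries of an arm came from separate cultures, so the p-values given for that mark rest on library spread that could be purely technical.

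H3K9ac is placed mainly by the GCN5 (KAT2A) and PCAF (KAT2B) acetyltransferases, which work in large complexes such as SAGA and ATAC, and is removed by histone deacetylases. It marks the nucleosomes around the start sites of active genes and is also found at active enhancers. H3K27ac, placed by p300 (EP300) and CBP (CREBBP), shares many of these sites, and the histone variant H2AZ flanks active start sites. ChIP-seq recovers DNA bound to such histones with an antibody, and a peak is a stretch where the recovered DNA exceeds a background.

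The H3K9ac list of Si1235 held 60035 peaks on chromosomes 1 to 22 and X, against 59945 peaks in NC1235. They covered 73.9 Mb in Si1235 and 74.3 Mb in NC1235, with a median peak width of 723 bp in Si1235 and 724 bp in NC1235. The authors' fold enrichment had a median of 6.01 in Si1235 and 5.90 in NC1235. The 2 lists were thus close in number, extent and strength, and 26.4% of Si1235 peaks and 26.5% of NC1235 peaks touched a promoter window, defined here as a start site with 1 kb on both sides. Read depth was not recorded in the lists. The bases covered by both H3K9ac lists made up 67.4% of the bases covered by either. The same overlap of an H3K9ac list was 51.8% to 55.1% with the 4 H3K27ac lists, 33.1% to 37.5% with the 4 H2AZ lists, and 1.55% to 1.85% with the 4 lists of H3K36me3, a mark of transcribed gene bodies.

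Markers of several cell types were looked up in both lists. All 8 epithelial and HER2 markers, such as ERBB2, KRT8 and EPCAM, had H3K9ac in their windows in Si1235 and in NC1235. Of the immune markers, 6 of the 11 with a window had H3K9ac in each arm, and PTPRC, CD3D, ITGAM, TYROBP and CD79A were uncovered in both arms. Of the endothelial markers, 3 of 6 had cover in Si1235 and 4 of 6 in NC1235, and TIE1 and TEK were uncovered in both. Of the mesenchymal markers, 9 of 14 had cover in each arm, and VIM, CDH2, ZEB2, PDGFRB and COL1A2 were uncovered in both. Over all 31305 genes with a window, 58.2% had H3K9ac in at least 1 arm. Among the 18329 protein-coding genes, to which these markers belong, the share was 72.4%. The immune, endothelial and mesenchymal counts lie below the protein-coding share. These lists are short, and depletion of these markers was not tested.

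Promoters on which the arms differed were more often CpG-poor than other covered promoters, without matching for cover, and 6 promoters are printed here. The 5 with a difference were chosen for their values and hold fewer CpG dinucleotides than is usual for such promoters. Each runs from 250 bases before to 50 bases after the start site, on the strand of the gene, from RefSeq (GRCh38.p14), and capitals mark CpG dinucleotides. Here and below, more or less of a mark at a gene means the percent of its promoter window under peaks, not peak strength. S100A5 and MUC16 had more H3K9ac and more H3K27ac in Si1235. CD36 had more H3K9ac and less H3K27ac in Si1235. ATP6V1B1 had the largest deficit of H3K9ac in Si1235, and FGF21 had less H3K9ac and more H3K27ac in Si1235. NFIB, a gene of the same chromosome as LINC01235, was fully covered in every library of both marks. They lie at chr1:153540885-153541184 (S100A5, minus strand), chr19:9010360-9010659 (MUC16, minus), chr7:80623842-80624141 (CD36, plus), chr2:70935650-70935949 (ATP6V1B1, plus), chr19:48755274-48755573 (FGF21, plus) and chr9:14314905-14315204 (NFIB, minus).
S100A5: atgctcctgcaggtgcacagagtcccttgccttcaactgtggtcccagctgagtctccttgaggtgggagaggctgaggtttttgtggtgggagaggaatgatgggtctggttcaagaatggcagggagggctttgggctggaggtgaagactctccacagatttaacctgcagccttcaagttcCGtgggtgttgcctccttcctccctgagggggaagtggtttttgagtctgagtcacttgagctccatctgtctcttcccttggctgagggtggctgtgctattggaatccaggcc
MUC16: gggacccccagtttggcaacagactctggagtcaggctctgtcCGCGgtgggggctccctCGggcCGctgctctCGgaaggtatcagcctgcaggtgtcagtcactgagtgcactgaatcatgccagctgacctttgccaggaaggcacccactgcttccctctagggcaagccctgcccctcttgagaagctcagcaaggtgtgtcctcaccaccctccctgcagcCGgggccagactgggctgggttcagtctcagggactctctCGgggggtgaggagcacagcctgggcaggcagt
CD36: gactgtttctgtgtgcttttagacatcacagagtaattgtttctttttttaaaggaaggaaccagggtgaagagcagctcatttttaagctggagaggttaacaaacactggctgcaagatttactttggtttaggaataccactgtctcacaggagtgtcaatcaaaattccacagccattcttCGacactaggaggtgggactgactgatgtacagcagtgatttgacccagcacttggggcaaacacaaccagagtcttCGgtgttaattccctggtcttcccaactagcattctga
ATP6V1B1: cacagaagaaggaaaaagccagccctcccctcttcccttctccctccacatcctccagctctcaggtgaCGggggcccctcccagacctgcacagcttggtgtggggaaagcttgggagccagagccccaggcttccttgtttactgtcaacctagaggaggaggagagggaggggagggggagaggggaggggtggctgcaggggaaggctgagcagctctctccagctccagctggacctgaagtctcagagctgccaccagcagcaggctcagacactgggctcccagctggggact
FGF21: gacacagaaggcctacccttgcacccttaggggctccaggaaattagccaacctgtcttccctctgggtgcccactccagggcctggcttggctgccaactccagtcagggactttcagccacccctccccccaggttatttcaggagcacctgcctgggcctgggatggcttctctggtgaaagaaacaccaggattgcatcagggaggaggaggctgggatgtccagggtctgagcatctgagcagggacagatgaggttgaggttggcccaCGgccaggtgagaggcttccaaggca
NFIB: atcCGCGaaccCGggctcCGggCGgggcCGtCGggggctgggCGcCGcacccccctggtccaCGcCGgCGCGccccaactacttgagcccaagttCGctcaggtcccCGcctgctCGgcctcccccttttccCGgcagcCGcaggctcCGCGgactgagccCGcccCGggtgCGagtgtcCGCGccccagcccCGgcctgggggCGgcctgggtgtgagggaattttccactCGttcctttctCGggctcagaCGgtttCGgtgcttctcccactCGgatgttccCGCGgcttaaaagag
S100A5 held 1 CpG, MUC16 held 7, CD36 held 2, ATP6V1B1 held 1 and FGF21 held 1, against 34 in NFIB. The letters TGANTCA, the motif of AP-1 (FOS and JUN proteins), occurred in S100A5 and MUC16 and not in the other 4 windows.

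Peaks of both lists were merged into 69255 union regions, and a region belonged to 1 arm when the other list had no peak overlapping it by at least 1 bp. H3K9ac lay in Si1235 only in 13341 regions (19.3%), in NC1235 only in 13327 regions (19.2%) and in both arms in 42587 regions. The 2 one-arm classes were of nearly equal size. Promoter regions, those touching a promoter window, were mostly shared: of 16150, 683 (4.23%) were in Si1235 only, 789 (4.89%) in NC1235 only and 14678 (90.9%) in both. Of 53105 distal regions, 12658 (23.8%) were in Si1235 only, 12538 (23.6%) in NC1235 only and 27909 (52.6%) in both. Beyond the promoter the one-arm share changed little with distance: it was 22.84% for Si1235 and 23.01% for NC1235 at 1 to 10 kb from a start site, and 22.7% for Si1235 and 25.1% for NC1235 beyond 100 kb. With the 40000 strongest peaks of each list, 6974 regions were in Si1235 only and 6874 in NC1235 only.

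**Figure D1:**
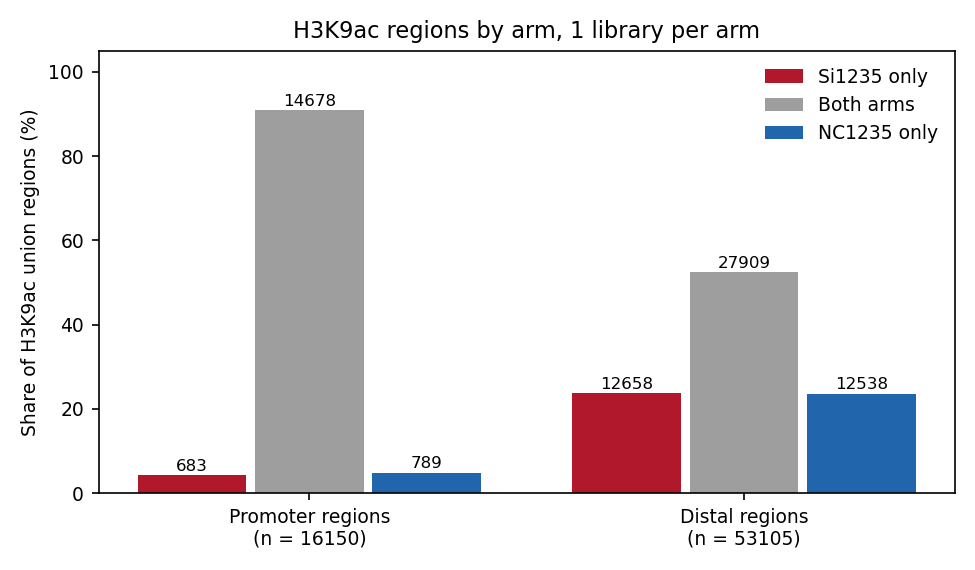
Bars give the percent of H3K9ac union regions (vertical axis) in Si1235 only, in both arms and in NC1235 only, for promoter regions and distal regions, with the count above each bar. Sharing is 90.9% at promoters and 52.6% at distal regions, and the one-arm bars of Si1235 and NC1235 are of similar height in each class.

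One-arm regions were narrow and weak. Their median width was 337 bp in Si1235 only and 340 bp in NC1235 only, against 1331 bp in shared regions. The median of the authors' −log10 q, taken at the strongest peak of a region, was 4.85 in Si1235 only, 4.44 in NC1235 only and 19.5 in shared regions. Only 853 of the Si1235 regions and 628 of the NC1235 regions reached a −log10 q of 10. When each list was split by −log10 q into 10 bins of equal size, 40.01% of the weakest bin of Si1235 peaks and 38.5% of the weakest bin of NC1235 peaks overlapped a peak of the other arm. In the strongest bin, 100% were shared in both lists, and 92.3% of Si1235 peaks and 92.7% of NC1235 peaks lay at promoter windows. No peak of that bin was therefore found in 1 arm only.

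**Figure D2:**
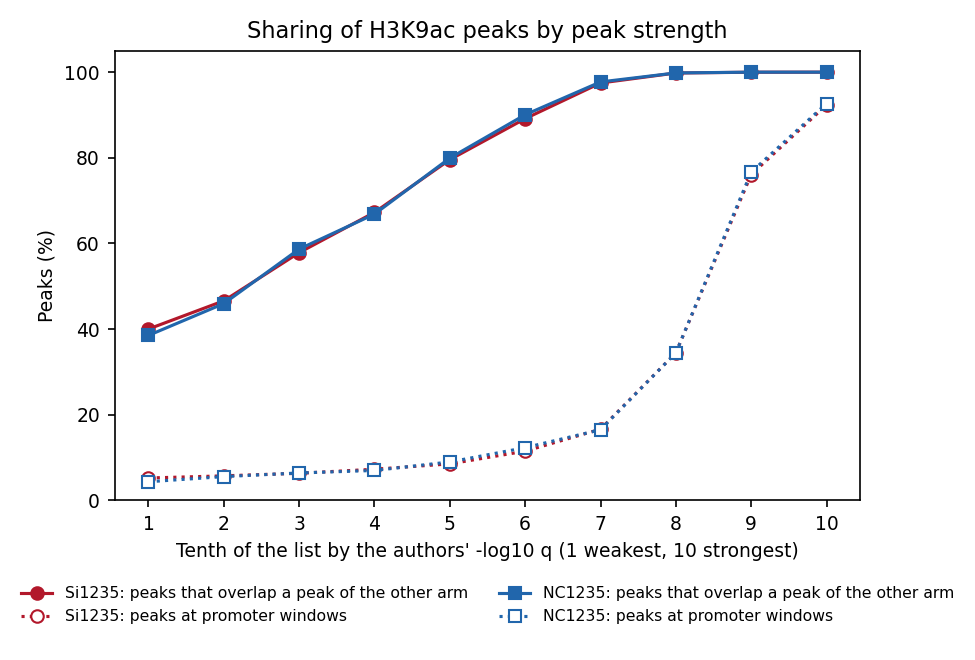
Filled symbols give the percent of H3K9ac peaks in each of 10 strength bins of a list that overlap a peak of the other arm, and open symbols the percent at promoter windows, for Si1235 (circles) and NC1235 (squares). The curves of the 2 arms nearly coincide, with 40.01% in Si1235 and 38.5% in NC1235 in the weakest bin and 100% in both in the strongest.

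The share of one-arm H3K9ac regions that belonged to Si1235 was 50.03% over all chromosomes and differed between them. On chromosomes 22 and 20, 60.0% and 58.3% of one-arm regions belonged to Si1235 (exact 95% binomial intervals 56.0% to 63.9% and 55.1% to 61.5%). On chromosomes 12 and 10, 40.5% and 42.2% belonged to Si1235 (intervals 37.5% to 43.5% and 39.2% to 45.3%). Intervals cover counting error only, neighbouring regions are not independent, and 1 library per arm gives no test of these shares. Within chromosome 16, the share was 65.9% between 80 and 100 Mb, with 112 regions in Si1235 only and 58 in NC1235 only, and 34.1% between 0 and 20 Mb, with 75 in Si1235 only and 145 in NC1235 only. The lowest share among 20 Mb bins was 29.2%, on chromosome 8 between 20 and 40 Mb, with 47 regions in Si1235 only and 114 in NC1235 only. For H3K27ac, the share of one-arm regions that belonged to Si1235 over all chromosomes was 51.6% between the libraries numbered 1 and 38.8% between those numbered 2. On chromosome 22 it was 59.9% and 51.9%, on chromosome 20 55.1% and 46.01%, on chromosome 12 54.8% and 38.4%, and on chromosome 10 57.2% and 41.1%. On chromosomes 22 and 20 both H3K27ac values lay above the overall ones, as for H3K9ac. On chromosome 10 both also lay above them, and on chromosome 12 one lay above and one below.

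**Figure D3:**
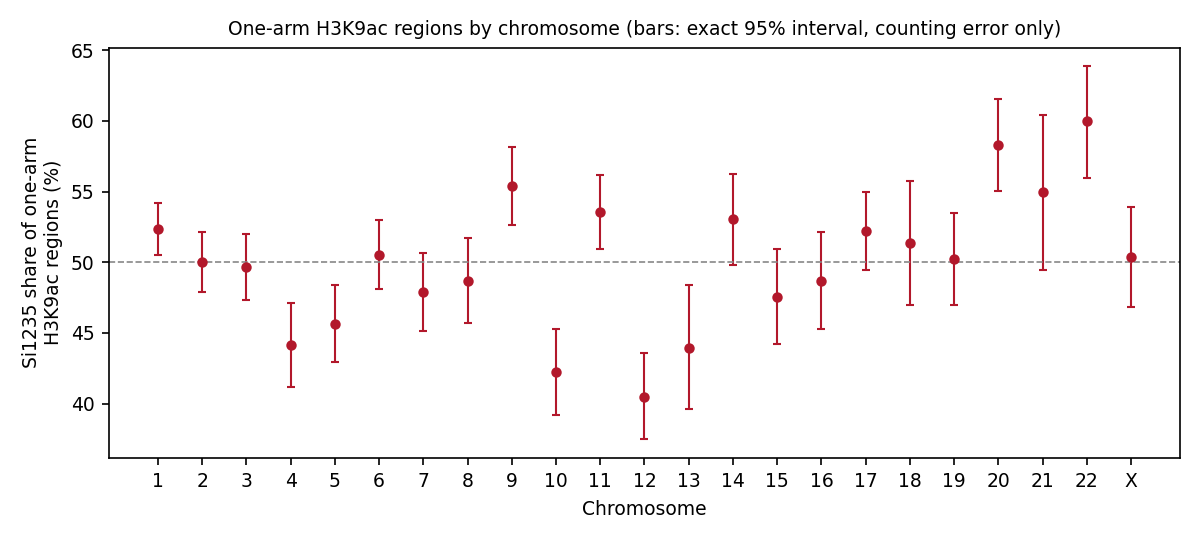
Points give, for each chromosome, the percent of one-arm H3K9ac regions that were in Si1235 only, with exact 95% binomial intervals for counting error, and the dashed line marks equal numbers. Chromosomes 20 and 22 lie above the line and chromosomes 10 and 12 below it, and no test was made of these shares.

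At the level of genes, cover was the percent of the promoter window under H3K9ac peaks, and a gene was counted as higher or lower at a difference of at least 20 points, Si1235 minus NC1235. H3K9ac touched the windows of 18204 of 31305 genes. It was higher in Si1235 at 520 genes (2.86%) and lower at 801 (4.4%), so that 7.26% differed in either direction. Cover differed by less than 10 points at 75.3% of the covered genes, and the median difference was 0 points. Among protein-coding genes 273 were higher and 484 lower, and among long non-coding RNA genes 247 were higher and 317 lower. No H3K9ac was found in NC1235 at 132 (25.4%) of the higher genes, and none in Si1235 at 173 (21.6%) of the lower genes. Cover in 1 arm only was found at 600 (3.55%) of the other covered genes. With windows of 2.5 kb on both sides, 166 genes were higher and 222 lower.

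Promoters with a difference held fewer CpG dinucleotides and more AP-1 letters than other covered promoters. The CpG observed-to-expected ratio of the 300-base promoter had a median of 0.391 in 391 higher genes and 0.639 in 588 lower genes, against 0.842 in 13594 covered genes that differed by less. In 12622 promoters with no H3K9ac it was 0.249. A ratio of at least 0.6 was found in 40.9% of higher, 53.4% of lower and 82.8% of the other covered promoters, and in 50.8% of all 27195 promoters with a table sequence. Searching both strands, the AP-1 letters TGANTCA occurred in 12.8% of higher and 10.5% of lower promoters, against 4.84% of the other covered promoters and 7.60% of all. The TATA box letters TATAAA occurred in 9.46% of higher and 8.67% of lower promoters, against 5.29% of the other covered promoters and 11.7% of all. The GC box letters GGGCGG occurred in 46.8% of higher and 53.7% of lower promoters, against 70.2% of the other covered promoters and 46.1% of all. The CCAAT letters occurred in 31.5% of higher and 35.2% of lower promoters and in 34.8% of the other covered promoters. A match is a run of letters and not a bound site. H2AZ covered a median of 35.2% of the window at higher genes and 46.4% at lower genes, against 72.8% at the other covered genes. The classes also differed in H3K9ac cover itself. Its median was 64.8% in Si1235 and 31.85% in NC1235 at higher genes, and 35.55% and 65.75% at lower genes. At the other covered genes it was 85.6% and 86.55%. Promoters were not matched for cover, so the sequence and H2AZ contrasts cannot be told apart from the extent of cover.

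The largest H3K9ac differences toward Si1235 lay at genes with partial cover. ZP1, a protein of the egg coat, had 58.8% cover in Si1235 and 0% in NC1235, with no H3K27ac in any of the 4 libraries. GLYATL1, an acyltransferase of glutamine conjugation, had 86.3% in Si1235 and 28.9% in NC1235, also without H3K27ac. SLC6A14, an amino acid transporter, had 49.7% in Si1235 and 0% in NC1235. These genes were thus covered in part in Si1235 and little or not at all in NC1235. TENT5B, a poly(A) polymerase, had 88.2% in Si1235 and 37.0% in NC1235. The cell cycle kinase CDK4 had 98.5% in Si1235 and 55.3% in NC1235, while its H3K27ac cover was 55.4% and 67.5% in the Si1235 libraries and 54.9% and 54.2% in the NC1235 libraries. Its H3K27ac groups did not overlap, but their means differed by 6.85 points only (limma adjusted p = 0.719). The highest H3K9ac fold enrichment in the TENT5B window was 10.5 in Si1235 and 4.56 in NC1235. In Si1235 it was 3.29 at ZP1 and 6.76 at SLC6A14, against a median of 6.01 over the peaks of that list. It went against cover at GLYATL1 (6.99 in Si1235, 8.60 in NC1235) and CDK4 (23.3 in Si1235, 26.6 in NC1235).

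Genes with less H3K9ac in Si1235 included a group without H3K27ac. ATP6V1B1, a subunit of the proton pump that acidifies compartments, had 0% cover in Si1235 and 80.8% in NC1235. Its H3K27ac cover was 28.0% and 0.5% in Si1235 against 28.3% and 15.0% in NC1235, and the groups overlapped. ISL1, a LIM-homeodomain transcription factor, had 0% in Si1235 and 61.1% in NC1235, and PLXNC1, a semaphorin receptor, had 0% in Si1235 and 59.4% in NC1235. Neither had H3K27ac in any library. The highest H3K9ac fold enrichment in NC1235 was 3.24 at ISL1, 5.51 at ATP6V1B1 and 6.29 at PLXNC1. The median over the peaks of that list was 5.90. SHC2, an adaptor of receptor tyrosine kinases, had 43.3% in Si1235 and 100% in NC1235, and VSIG10L had 16.3% in Si1235 and 68.5% in NC1235, both without H3K27ac. Over all genes, 35.7% of the lower and 23.3% of the higher genes had no H3K27ac in their windows, against 12.03% of the other covered genes.

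Some genes had more H3K9ac and more H3K27ac in Si1235. A gene was counted here when both H3K27ac libraries of one arm lay beyond both of the other, with means at least 20 points apart, which held for 2.08% of the covered genes in the direction of Si1235 and 1.63% in the direction of NC1235. S100A5, a calcium-binding S100 protein, had 53.9% H3K9ac cover in Si1235 and 0% in NC1235, and its H3K27ac cover was 78.4% and 56.9% in Si1235 against 28.6% and 25.1% in NC1235. MUC16, the mucin that carries the CA125 antigen, had 54.9% H3K9ac in Si1235 and 20.1% in NC1235, and its H3K27ac was 49.7% and 54.4% in Si1235 against 0% and 0% in NC1235. Both Si1235 values of H3K27ac exceeded both NC1235 values at S100A5 and at MUC16. In limma over all windows, the H3K27ac difference of MUC16 was 52.0 points (SE 2.28, adjusted p = 0.0498) and that of S100A5 was 40.8 points (SE 9.19, adjusted p = 0.257). The adjusted p of MUC16 lay between 0.0572 and 0.206 when 1 of the 4 H3K27ac libraries was left out. The same direction in both marks was seen at SLC41A2, a magnesium transporter, with 100% H3K9ac in Si1235 and 68.1% in NC1235. TSTD1 had 92.2% in Si1235 and 60.6% in NC1235, VKORC1, the vitamin K reductase, 79.2% in Si1235 and 53.9% in NC1235, and CSK, the kinase that restrains SRC, 100% in Si1235 and 68.5% in NC1235. The H3K27ac differences of these 4 genes were 21.8 to 36.4 points, with adjusted p between 0.0620 and 0.294. The highest H3K9ac fold enrichment in the window was higher in Si1235 than in NC1235 at SLC41A2 (20.6 against 12.8) and TSTD1 (38.7 against 23.8). It was lower in Si1235 at MUC16 (6.76 against 7.42), VKORC1 (19.1 against 20.9) and CSK (9.32 against 14.5). Over the whole H3K9ac region, cover at CSK was nearly equal, with 4446 bp in Si1235 and 4396 bp in NC1235. At SLC41A2 it was 2838 bp in Si1235 and 1829 bp in NC1235.

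Less of both marks in Si1235 was found at 19 (2.37%) of the 801 genes with less H3K9ac. More of both was found at 21 (4.04%) of the 520 with more. Over all covered genes, H3K27ac stood apart downward at 1.63% and upward at 2.08%. The opposite direction of H3K27ac was more frequent in both groups, at 36 (4.49%) and 41 (7.88%). Of these 41 genes, 26 were long non-coding RNA genes. Among protein-coding genes with more H3K9ac, 15 had the opposite and 12 the same direction. PRKAB1, a regulatory subunit of the energy sensor AMPK, had 75.4% H3K9ac in Si1235 and 100% in NC1235, and its H3K27ac was 62.9% and 62.6% in Si1235 against 86.0% and 83.4% in NC1235. CREB5, a transcription factor of the CREB family, had 58.4% H3K9ac in Si1235 and 87.1% in NC1235. ZCCHC24 had 68.2% in Si1235 and 100% in NC1235, and SYNC, an intermediate filament protein of muscle, 44.8% in Si1235 and 67.1% in NC1235. PHKG1, a catalytic subunit of phosphorylase kinase, had 0% in Si1235 and 44.4% in NC1235, and CYP4F8 had 0% in Si1235 and 28.3% in NC1235. The H3K27ac differences of these 6 genes lay between −31.1 and −22.0 points, and none passed limma (adjusted p between 0.118 and 0.643). TPM2, a tropomyosin, was the one protein-coding gene lower in H3K9ac whose H3K27ac fell in limma, by less than 20 points. It was named after its values were seen, with 77.8% H3K9ac in Si1235 and 100% in NC1235, and H3K27ac of 81.8% and 82.9% in Si1235 against 100% and 100% in NC1235 (difference −17.7 points, SE 0.513, adjusted p = 0.0266, and 0.0101 to 0.176 when 1 library was left out).

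At other promoters the 2 marks pointed in opposite directions. Of the 520 genes with more H3K9ac in Si1235, H3K27ac stood apart upward at 21 (4.04%) and downward at 41 (7.88%). Of the 801 with less, it stood apart downward at 19 (2.37%) and upward at 36 (4.49%). Among the 16883 other covered genes, it stood apart upward at 321 (1.90%) and downward at 237 (1.40%). The downward excess at higher genes lay mostly in long non-coding RNA genes, with 26 downward and 9 upward of 247. At the 273 protein-coding higher genes the counts were close, with 15 downward and 12 upward. Of the 484 protein-coding lower genes, H3K27ac stood apart upward at 17 and downward at 7. At the 317 long non-coding RNA lower genes these counts were 19 and 12. The counts changed with the libraries used. Without Si1235 library 2, H3K27ac stood apart upward at 43 and downward at 39 of the higher genes, and downward at 21 and upward at 52 of the lower genes. Without Si1235 library 1, it stood apart upward at 28 and downward at 51 of the higher genes, and downward at 30 and upward at 31 of the lower genes. Without NC1235 library 1, these counts were 26 upward and 35 downward at higher genes, and 25 downward and 37 upward at lower genes. Without NC1235 library 2, they were 27 and 39, and 21 and 33. Opposed lower genes thus outnumbered matched ones under each omission, by only 31 to 30 without Si1235 library 1. At higher genes the order turned round without Si1235 library 2. With the libraries numbered 2 alone, lower genes stood at 35 and 35. The order was not tested. The following genes were chosen after their values were seen. CD36, a fatty acid and lipoprotein receptor, had 48.4% H3K9ac in Si1235 and 0% in NC1235, while its H3K27ac was 19.95% and 18.1% in Si1235 against 57.8% and 57.6% in NC1235 (limma difference −38.6 points, SE 1.20, adjusted p = 0.0288, and 0.0655 to 0.152 when 1 library was left out). ATP13A5, a P-type ATPase, had 82.7% H3K9ac in Si1235 and 30.9% in NC1235, against H3K27ac of 39.0% and 48.4% in Si1235 and 77.0% and 77.9% in NC1235. The keratinocyte genes CASP14 and SERPINB13 and the interleukin receptor gene IL7R had the same pattern. CASP14 had 84.2% H3K9ac in Si1235 and 51.8% in NC1235, SERPINB13 85.5% in Si1235 and 52.5% in NC1235, and IL7R 43.0% in Si1235 and 11.8% in NC1235. Their H3K27ac differences were −40.2, −33.4 and −45.3 points, with adjusted p of 0.375, 0.368 and 0.176 in limma.

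The reverse pattern was seen at FGF21 and ROBO4. FGF21, a hormone of metabolic stress, had 42.7% H3K9ac in Si1235 and 100% in NC1235, while its H3K27ac was 97.2% and 93.9% in Si1235 against 70.4% and 67.4% in NC1235 (limma adjusted p = 0.0952). ROBO4, an endothelial guidance receptor, had 29.0% H3K9ac in Si1235 and 63.2% in NC1235, while its H3K27ac was 100% and 81.9% in Si1235 against 31.7% and 28.4% in NC1235 (limma difference 60.9 points, SE 7.86, adjusted p = 0.139). LIMS2, a focal adhesion protein, had 0% H3K9ac in Si1235 and 32.9% in NC1235, and its H3K27ac was 39.5% and 29.5% in Si1235 against 0% and 0% in NC1235. The endothelial markers with a window summed to 145 points of H3K9ac cover in Si1235 and 208 in NC1235, and the immune markers to 305 in Si1235 and 353 in NC1235. Their part in these results was not tested. BLNK, a B-cell linker named after its values were seen, had 60.1% H3K9ac in Si1235 and 100% in NC1235, while its H3K27ac was 100% and 100% in Si1235 against 88.5% and 88.9% in NC1235 (limma difference 11.3 points, SE 0.185, adjusted p = 0.0159, and 0.0114 to 0.0996 when 1 library was left out).

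**Figure D4:**
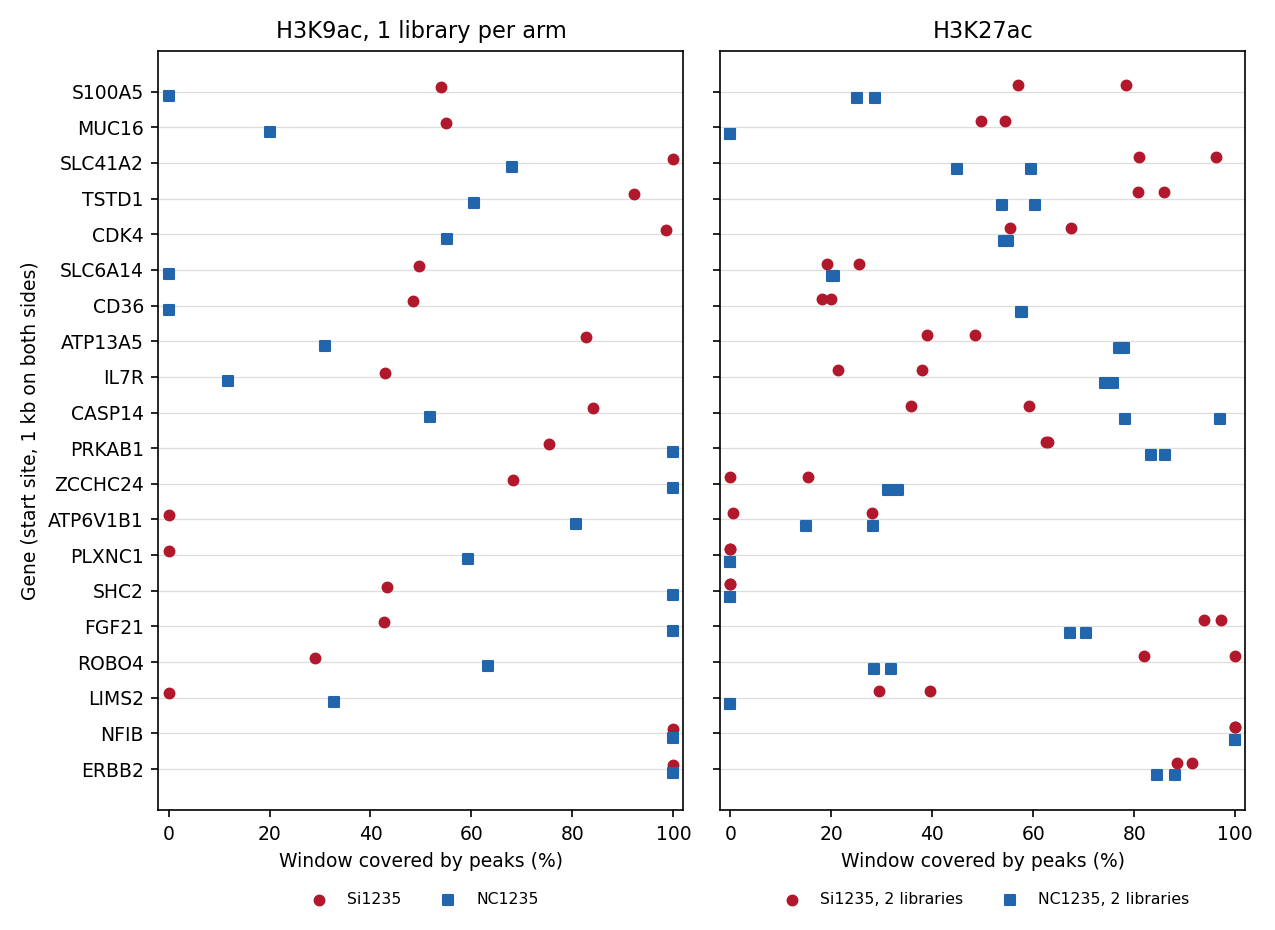
The horizontal axis gives the percent of the window (start site with 1 kb on both sides) covered by peaks, for H3K9ac on the left (1 library per arm) and H3K27ac on the right (2 libraries per arm), with Si1235 as circles above NC1235 as squares in each row. MUC16 and S100A5 lie to the right in Si1235 in both panels, CD36 and IL7R change sides between the panels, as do FGF21 and ROBO4, and NFIB is at 100% throughout.

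Genes without a start site in the promoter table had as their window the gene end with more H2AZ cover, which need not be the start. At such ends, H3K9ac covered 49.7% in Si1235 and 0% in NC1235 at LRRN4, 74.8% in Si1235 and 28.5% in NC1235 at RHPN1, and 16.5% in Si1235 and 71.8% in NC1235 at FGF9, a fibroblast growth factor. The highest H3K9ac fold enrichment went with cover at RHPN1 (6.38 in Si1235, 5.61 in NC1235). It went against cover at FGF9 (6.88 in Si1235, 3.44 in NC1235). STAC3 had 78.3% in Si1235 and 51.2% in NC1235, with more H3K27ac in Si1235. ULK4 had 62.2% in Si1235 and 91.1% in NC1235, with less H3K27ac in Si1235. TRIM29, a basal epithelial gene, had 72.6% in Si1235 and 42.4% in NC1235 with less H3K27ac in Si1235, and the T-cell gene CD3E 44.5% in Si1235 and 78.1% in NC1235 with more H3K27ac in Si1235. At table start sites, SOBP had 23.2% in Si1235 and 83.4% in NC1235 with no H3K27ac in any library. Uncharacterised protein-coding loci among the largest differences were LOC124904962, with 53.9% in Si1235 and 0% in NC1235, LOC124905366, with 16.6% in Si1235 and 75.7% in NC1235, and LOC124903206, with 12.1% in Si1235 and 69.4% in NC1235.

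In limma across all 15616 windows with a mean H3K27ac cover of at least 5%, H3K27ac was higher in Si1235 at 41 (0.263%) and lower at 43 (0.275%) by limma with Benjamini-Hochberg adjustment at 0.05. Of 379 tested genes with more H3K9ac in Si1235, H3K27ac was higher at 1, MUC16, and lower at 3, among them CD36. Of 493 tested genes with less H3K9ac, it was higher at 1, BLNK, and lower at 1, TPM2. These 6 calls are too few to set against the background. Cover cannot fall below none or rise above the full window, so libraries at either limit show no spread. Both Si1235 libraries of BLNK and both NC1235 libraries of TPM2 were at full cover, and both NC1235 libraries of MUC16 had none. A small SE at such windows is therefore no measure of precision. ROBO4, with a larger difference of 60.9 points (SE 7.86), was not called. Leaving out 1 library moved the counts over all windows to 9 higher and 286 lower without Si1235 library 1, 5 and 150 without Si1235 library 2, 337 and 9 without NC1235 library 1, and 252 and 3 without NC1235 library 2.

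Among distal regions, H3K27ac went against H3K9ac more often than with it in the regions of Si1235. Of the 12658 distal regions with H3K9ac in Si1235 only, 284 (2.24%) had H3K27ac in both Si1235 libraries and neither NC1235 library, and 655 (5.17%) had the reverse. Of the 12538 in NC1235 only, 384 (3.06%) had H3K27ac in both Si1235 libraries and neither NC1235 library, and 384 (3.06%) had the reverse. Of the 27909 in both arms, 435 (1.56%) had it in Si1235 and 631 (2.26%) in NC1235. Over all distal regions these shares were 2.08% for Si1235 and 3.14% for NC1235. At promoter regions, H3K27ac was in Si1235 alone in 0.83% and in NC1235 alone in 0.762%. There, 23 of the 683 in Si1235 only had H3K27ac in Si1235 alone and 12 in NC1235 alone, and 22 of the 789 in NC1235 only had it in Si1235 alone and 14 in NC1235 alone. H3K27ac was in all 4 libraries in 24.3% of the distal regions of Si1235 only and 21.0% of those of NC1235 only, and in none in 53.7% and 58.1% of them.

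Over promoter and distal regions together, 1.79% had H3K27ac in Si1235 alone and 2.59% in NC1235 alone. H3K27ac matched 307 of the regions in Si1235 only and opposed 667, and it matched 398 of those in NC1235 only and opposed 406. Requiring only 3 H3K27ac libraries raised these counts. For Si1235, they were 486 matched and 1022 opposed without Si1235 library 1, 588 and 878 without Si1235 library 2, 436 and 938 without NC1235 library 1, and 452 and 847 without NC1235 library 2. For NC1235, they were 641 matched and 628 opposed, 548 and 750, 657 and 557, and 548 and 611 with the same omissions. Opposed regions outnumbered matched ones in all 4 cases for Si1235 and in 2 of 4 for NC1235. For H2AZ, 1.25% of all distal regions had peaks in both Si1235 libraries and no NC1235 library, and 2.11% had the reverse. Of the distal regions in Si1235 only, 174 (1.37%) had H2AZ in Si1235 alone and 196 (1.55%) in NC1235 alone. Of those in NC1235 only, 93 (0.742%) had it in Si1235 alone and 314 (2.504%) in NC1235 alone, and of those in both arms, 398 (1.43%) in Si1235 alone and 613 (2.196%) in NC1235 alone.

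**Figure D5:**
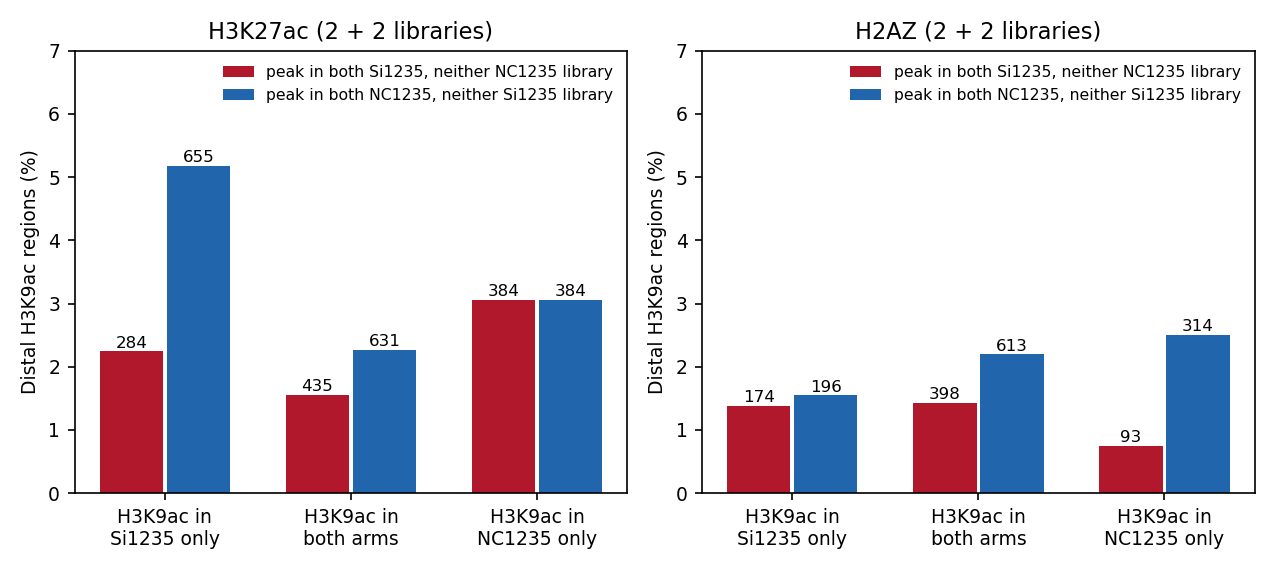
Bars give the percent of distal H3K9ac regions in which both Si1235 libraries and neither NC1235 library had a peak, left of the reverse, for H3K27ac (left panel) and H2AZ (right panel), with counts above the bars. In regions with H3K9ac in Si1235 only, H3K27ac was found in Si1235 alone in 284 and in NC1235 alone in 655, while for H2AZ these counts were 174 and 196.

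The percent of each distal H3K9ac region that H3K27ac covered was also tested, in the same 4 H3K27ac libraries. These counts thus in part recount the presence patterns above and are no separate support. Over the 33847 regions tested by limma, cover was higher in Si1235 at 703 (2.08%) and lower at 1236 (3.65%), with Benjamini-Hochberg adjustment at 0.05. Of 5721 tested regions with H3K9ac in Si1235 only, H3K27ac was higher in Si1235 at 144 (2.52%) and lower at 455 (7.95%). Of 5103 with H3K9ac in NC1235 only, it was higher at 195 (3.82%) and lower at 236 (4.62%), and of 23023 in both arms, higher at 364 (1.58%) and lower at 545 (2.37%). Lower calls were 3.16 times as many as higher ones in regions of Si1235 only. That ratio was 2.28 without Si1235 library 1, 1.53 without Si1235 library 2, 3.11 without NC1235 library 1, 3.00 without NC1235 library 2 and 2.49 after quantile normalization. In regions of NC1235 only, the ratio of 1.21 became 1.03, 0.690, 1.495, 1.41 and 1.02 under the same settings, and so turned round without Si1235 library 2. In shared regions, the ratio of 1.497 became 3.31, 2.07, 0.830, 0.792 and 0.766, and so turned round without either NC1235 library and after quantile normalization. With replicate number as a block in the model, 0 regions were called higher and 0 lower in each class. In simulated data at the libraries' own spread, no planted distal change was called. The difference between the classes itself was not tested. The deposited H3K27ac lists differed between the arms in one respect. For the 1500 weakest peaks of a list, the fold enrichment and −log10 p gave a whole-number pileup, within 0.002, for 100% of peaks in both Si1235 libraries and in both H3K9ac lists, against 0.733% and 12.7% in the NC1235 libraries. The part of this difference in the H3K27ac results was not tested.

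The strongest one-arm distal regions illustrate the range. By the authors' fold enrichment, the highest in Si1235 only lay at chr2:129055773-129056397 (hg38), 736905 bp from the start site of HS6ST1, with a fold enrichment of 12.01 and H3K27ac over 100% of the region in all 4 libraries. Another, at chr1:40668723-40669092, lay 3041 bp from the start site of RIMS3, with a fold enrichment of 10.5, no H3K27ac in any library and H2AZ in all 4. The highest with H3K27ac in Si1235 alone lay at chr7:542502-543432, 21802 bp from PDGFA, a platelet-derived growth factor, with an H3K9ac fold enrichment of 9.86 and H3K27ac over 67.7% and 60.8% of the region in Si1235 and 0% in both NC1235 libraries. In NC1235 only, the region at chr9:21253183-21253696, 13178 bp from the type I interferon gene IFNA14, had a fold enrichment of 12.2 and H3K27ac in NC1235 alone. The region at chr15:74193553-74194540, 8247 bp from STRA6, a vitamin A receptor, had a fold enrichment of 11.7 in NC1235 and H3K27ac in all 4 libraries. Among opposed regions, chosen after their values were seen, one in Si1235 only at chr1:89808865-89809497, 11535 bp from LRRC8D, had H3K27ac over 49.3% and 54.8% of the region in NC1235 and none in Si1235. One in NC1235 only at chr18:7872040-7872577, 74298 bp from PTPRM, had H3K27ac over 99.4% and 98.1% of the region in Si1235 and none in NC1235.

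The width of shared regions differed little. Of 42587 shared regions, the H3K9ac cover was at least 2-fold wider in Si1235 in 2235 (5.25%) and at least 2-fold narrower in 2191 (5.14%). The median cover of a shared promoter region was 2196 bp in Si1235 and 2251 bp in NC1235, with a median log2 ratio of −0.04. For shared distal regions it was 805 bp in Si1235 and 797 bp in NC1235, with a median log2 ratio of 0.01. At promoters 181 regions (1.23%) were wider and 233 (1.59%) narrower, and at distal sites 2054 (7.36%) were wider and 1958 (7.02%) narrower. Regions that differed in width were short: the wider ones had a median cover of 965 bp in Si1235 and 337 bp in NC1235, and the narrower ones 325 bp in Si1235 and 898 bp in NC1235. H3K27ac cover stood apart by at least 2-fold in 2.8% of all shared regions in the wider and 3.81% in the narrower direction. In the 2235 regions wider for H3K9ac it was wider in 117 (5.23%) and narrower in 206 (9.22%), and in the 2191 narrower ones it was wider in 142 (6.48%) and narrower in 130 (5.93%). Both directions of H3K27ac were thus more frequent where H3K9ac width differed than over all shared regions.

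A few promoter regions over 2 kb changed in width. In a region 318 bp from the start site of CMIP, the c-Maf-inducing protein, H3K9ac covered 2187 bp in Si1235 and 381 bp in NC1235, and H3K27ac covered 54.0% and 42.8% of the region in Si1235 against 23.9% and 19.8% in NC1235. At DHRS9, a retinol dehydrogenase, it covered 2848 bp in Si1235 and 732 bp in NC1235. At OSM, the cytokine oncostatin M, it covered 2177 bp in Si1235 and 655 bp in NC1235. These regions were single broad peaks in Si1235. In the other direction, the region near APOLD1 had 1320 bp in Si1235 and 3537 bp in NC1235. That of MEF2C, a MADS-box transcription factor, had 852 bp in Si1235 and 2017 bp in NC1235. A region 3000 bp from the start site of NFIL3, a bZIP repressor, had 840 bp in Si1235 and 2063 bp in NC1235. It lies outside the window of that start site and counts as a promoter region through another window. At MEF2C, H3K27ac covered 94.8% and 71.7% of the region in Si1235 against 93.5% and 100% in NC1235. Among distal regions of at least 2 kb in the wider library, the largest ratio lay 12462 bp from LASP1NB, with 2137 bp in Si1235 and 226 bp in NC1235 and a log2 ratio of 3.24, and the lowest 6118 bp from PTPA, a phosphatase activator, with 682 bp in Si1235 and 3730 bp in NC1235 and a log2 ratio of −2.45.

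The 20 gene lists held 398 genes, of which 384 had a window. Set beside the 7.26% of all covered genes that differed by at least 20 points, the counts in these short lists are small and are given as descriptions. That share includes long non-coding RNA genes, of which more differed. Of the covered protein-coding genes, 2.06% were higher and 3.65% lower. These smaller shares are the nearer reference wherever 7.26% is set beside a list of protein-coding genes below. Median cover was 100% in both arms in the acetyltransferase, licensing and ribosomal protein lists, and 91.3% in Si1235 and 98.6% in NC1235 in the deacetylase list. Cover near 100% leaves little room for a difference, so a count of none there need not mean stability. Over all 18204 covered genes, the difference was above 0 in 32.1%, below 0 in 42.1% and 0 in the rest. Among the H3K9 acetyltransferases and their complexes, 19 of 20 genes were covered, none differed by 20 points, against 7.26% of all covered genes, and the median difference was 0 points. Their largest difference was 19.9 points at TAF6L, a SAGA subunit, with 100% in Si1235 and 80.1% in NC1235. KAT2B had 100% in both arms, and KAT2A had 54.1% in Si1235 and 61.1% in NC1235. Among the histone deacetylases and corepressors, 19 of 20 were covered and none differed by 20 points, against the same 7.26%. SIRT7, a nucleolar sirtuin that removes acetyl groups from H3K18 and whose window is a gene end, had 50.9% in Si1235 and 68.9% in NC1235.

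Replication genes were covered throughout. The licensing genes, which load the MCM helicase at origins, had cover at 16 of 16 in both arms, differences between −4.6 and 12.1 points and a median of 0 points. Of the 28 origin firing and fork genes, POLD1, the catalytic subunit of DNA polymerase delta, had 100% in Si1235 and 73.0% in NC1235, and MCM10, which helps fire origins, had 74.0% in Si1235 and 98.5% in NC1235. Both moved in H3K27ac to the same side, by 19.5 points at POLD1 and −12.6 points at MCM10, with limma adjusted p of 0.329 and 0.214. Of 27 covered cell cycle regulators, 1, CDK4, differed by 20 points, against 7.26% of all covered genes. In the HER2 and ERBB list, the docking protein IRS2 had 100% in Si1235 and 79.0% in NC1235, while its relative IRS1 had 76.2% in Si1235 and 100% in NC1235, and the ERBB ligand BTC had 49.6% in Si1235 and 71.8% in NC1235. Fold enrichment went with cover at IRS2 (25.5 in Si1235, 22.6 in NC1235). It went against cover at IRS1 (17.6 in Si1235, 13.5 in NC1235) and BTC (22.3 in Si1235, 13.2 in NC1235). Over the whole H3K9ac region, cover at IRS2 was 3312 bp in Si1235 and 3407 bp in NC1235, so its window difference was no gain in extent. At IRS1 it was 2272 bp in Si1235 and 2628 bp in NC1235. ERBB2 was at 100% in both arms.

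The interferon and nucleic acid response list was counted by sign in both marks. Of its 28 covered genes, H3K9ac cover was below that of NC1235 in 13, above it in 7 and equal in 8, and the share below (46.4%) was near the 42.1% of all covered genes. Mean H3K27ac cover was above that of NC1235 in 18, below it in 1 and equal in 9. The median difference was 0 points for H3K9ac and 2.74 points for H3K27ac, against 0 points for both marks over all covered genes. Mean H3K27ac cover was above that of NC1235 in 41.2% of all covered genes and below it in 34.3%. IFI27, an interferon-induced mitochondrial protein, had 51.5% H3K9ac in Si1235 and 79.8% in NC1235, with H3K27ac between 93.1% and 95.8% in all 4 libraries. ISG20, an antiviral exonuclease, had 79.8% H3K9ac in Si1235 and 94.0% in NC1235, while its H3K27ac was 100% and 100% in Si1235 against 73.4% and 79.5% in NC1235 (limma adjusted p = 0.122). CXCL11, a chemokine, had 0% H3K9ac in Si1235 and 18.6% in NC1235, while its H3K27ac was 24.4% and 23.1% in Si1235 against 0% and 0% in NC1235 (limma adjusted p = 0.0866). ISG20 and CXCL11 were named after their values were seen. Among other lists, SPARC, a matricellular protein, had 84.1% H3K9ac in Si1235 and 54.6% in NC1235, and HMGA1, an architectural chromatin protein, 61.3% in Si1235 and 83.5% in NC1235. Fold enrichment went with cover at SPARC (8.63 in Si1235, 7.48 in NC1235) and against it at HMGA1 (47.3 in Si1235, 39.5 in NC1235). All 33 cytosolic ribosomal protein genes were covered in both arms, and none differed by 20 points, against 7.26% of all covered genes. Their median cover was 100% in both arms, which leaves little room for a difference.

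At LINC01235 itself (chr9:13406380-13431329, hg38), H3K9ac had 3 peaks in Si1235 and 1 in NC1235. The strongest in Si1235 covered 1003 bp at chr9:13427688-13428690 with a fold enrichment of 10.1, and the one of NC1235 covered 1836 bp at chr9:13427265-13429100 with a fold enrichment of 13.0. The 2 peaks overlapped, and that of Si1235 lay within that of NC1235. The other Si1235 peaks were weak, with fold enrichments of 3.17 and 2.60. H3K27ac had 1 peak in each of the 4 libraries at the same place, covering 515 bp and 498 bp in Si1235 and 447 bp and 535 bp in NC1235. Of the 8 covered genes among LINC01235 and its chromosome 9p neighbours, none differed by 20 points in H3K9ac, and NFIB, a nuclear factor I transcription factor, was at 100% in both arms.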

How the data were processed

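The authors deposited 1 peak list per library, called with MACS2 after Bowtie2 2.2.9 alignment to hg38; these names, with HTSeq 2.0.3 and DESeq2 1.22.2, come from the submitters' processing notes, which give no role or MACS2 version. The sources used here do not name the control used for peak calling. In each deposited list, fold enrichment is the authors' linear ratio over background, and significance is the authors' −log10 p and −log10 q. No read counts were used, so depth is unknown and limits precision. The peak names in both H3K9ac lists carry the name of another lysine, and the labels were followed. The ChIRP list was not used, and the 2 inputs were not analysed here.

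Overlaps on chromosomes 1 to 22 and X used Python 3.11.15, numpy 2.4.6 and pandas 2.3.3. Start sites came from the RefSeq promoter table (GRCh38.p14) for 27195 genes, and among several starts the one with most H2AZ cover was used. For 4110 further genes, chromosome 8 included, the gene end with more H2AZ cover stood in. The rule was checked in 15168 genes with a table start and unequal cover at their ends. It picked the end given by the strand in 91.9% of them. The distance of that end from the table start was not checked. A further 6844 genes had no window. H3K27ac cover was tested with limma 3.58.1 (R 4.3.3; trend, mean cover of at least 5%, Benjamini-Hochberg at 0.05), after a check on simulated data. The simulation was redrawn after a first version recovered none of its planted changes. In windows of low spread, changes at promoters were called and moderate ones in distal regions were missed. At the libraries' own spread, part of those at promoters and none in distal regions were called. Some unchanged windows were called, so limma counts are approximate and can miss changes. Named genes were the 10 largest differences in each direction, the 8 largest per direction found in both marks, the strongest one-arm regions, the largest width ratios and up to 2 genes per list and direction; the members and lists were chosen with earlier results of these data known. Alternatives varied the peak threshold, peak number, window, overlap, merging, filter, normalization and libraries.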

Additional observations from a re-analysis of the deposited data

How the results depend on the processing

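Of 104 alternative counts computed for 18 results, 53 were within 1.5 times the reported count. Regions of Si1235 only and NC1235 only numbered 6974 and 6874 with the 40000 strongest peaks per list, 8034 and 8458 when peaks within 1 kb counted as shared, and, with peaks of −log10 q of at least 5, 8634 for NC1235. Higher and lower promoter windows for H3K9ac numbered 166 and 222 with 2.5 kb on both sides, and 391 and 588 with table start sites only, a setting chosen after seeing the data, as was the count of limma calls by H3K9ac class. With the H3K27ac libraries numbered 1 alone, Si1235 regions were matched in 793 and opposed in 1086, NC1235 regions in 732 and 1035, higher promoters in 41 and 36, and lower promoters in 22 and 56. With those numbered 2 alone, these were 643 and 1353 for Si1235, 980 and 813 for NC1235, and higher promoters were matched in 29 and opposed in 46, lower ones in 35 and 35. With −log10 q of at least 5, 225 NC1235 regions were opposed. Leaving out 1 H3K27ac library gave 436 to 588 matched and 847 to 1022 opposed regions for Si1235, 548 to 657 and 557 to 750 for NC1235, 26 to 43 matched and 35 to 51 opposed for higher promoters, and 21 to 30 and 31 to 52 for lower promoters; without Si1235 library 2, matched higher promoters (43) outnumbered opposed ones (39). It gave 5 to 337 higher and 3 to 286 lower promoter windows in limma, and 1720 to 2236 higher and 2181 to 4450 lower distal regions. Wider windows gave 3 higher and 5 lower promoters in limma. The replicate block left 0 higher and 0 lower promoter windows and 0 higher and 0 lower distal regions, with 1845 and 4600 at an unadjusted p under 0.05; the replicate numbers share only a number, since deviations of same-numbered libraries correlated at 0.056 over promoter windows and 0.017 over distal regions. Weak peaks limit the H3K9ac comparison, since one-arm regions lie near the calling threshold and read depth is unknown. The cause of each change was not tested, except that fewer libraries required per pattern raise its count by construction.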
